A study of Mus musculus with 18 samples.

Results

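The core circadian clock loop was taken as 10 genes: the activators Arntl (also called Bmal1), Clock and Npas2, the period genes Per1, Per2 and Per3, the cryptochromes Cry1 and Cry2, and the nuclear receptors Nr1d1 and Nr1d2 (REV-ERBα and REV-ERBβ). They are 10 of the 30583 genes in the count table, and all 10 passed the filter on low counts that kept 16311 genes. The list was selected on values already measured in these libraries, the levels and fold changes of clock genes between sham and the times after infarction, so those are given below as a description. No p-value is given for them, and the calls of the fit are only counted, beside the share of all genes called. RNA came from the hearts of 18 male C57BL/6JR mice of 12 weeks, 3 in each of 6 groups. In 5 groups a myocardial infarction (MI) was made by ligating the left anterior descending artery, and hearts were taken after 10 min or 1, 6, 24 or 72 h. The sham mice, labelled 0 h, were operated on likewise, but the suture under the artery was left untied. Every group was therefore anaesthetised and had the chest opened. The only sham group is the one labelled 0 h. Time since anaesthesia and surgery therefore cannot be told apart from time after ligation. No hour of day of the operation or of death is given in the sources used here. The time after ligation and the hour of day therefore cannot be told apart in any comparison below.

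In textbook accounts of the mammalian clock, ARNTL pairs with CLOCK or NPAS2, binds E-box elements and switches on the Per, Cry and Nr1d genes. PER and CRY proteins return to the nucleus and inhibit that pair, while the REV-ERB receptors repress Arntl, Clock and Npas2 through elements that the activating ROR receptors also bind. Arntl RNA and the RNAs of its targets therefore peak at opposite phases of the day in most tissues, the heart among them, where the loop paces metabolic and contractile genes.

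Libraries held 18.2 to 25.1 M counts (M, mega), and levels are given as CPM (counts per M counts after TMM scaling of the libraries). Values of 3 mice are listed in the order of replicates 1, 2 and 3. The labels name myocardium of the infarcted left ventricle and also cardiomyocytes, but describe no separation of cells, and the libraries held RNA of many cell types. The summed level of 8 cardiomyocyte markers ran from 57855 to 63032 CPM in sham, from 24878 to 38951 CPM at 24 h and from 15218 to 20056 CPM at 72 h, when the mean of 8 of 8 markers was below sham. Over the same groups 7 macrophage markers went from 250 to 282 CPM in sham to 573 to 706 CPM at 24 h and 3151 to 4105 CPM at 72 h, and 6 fibroblast markers from 755 to 857 CPM in sham to 12237 to 15865 CPM at 72 h. The 6 neutrophil markers summed to 2.3 to 3.6 CPM in sham, with Ly6g at 0 in every sham library, 97.0 to 737 CPM at 6 h and 35.1 to 653 CPM at 24 h. In bulk tissue, fewer cells of a type and less RNA per cell cannot be told apart. Marker sums also differed at 10 min: fibroblast markers were at 934 to 1029 CPM and neutrophil markers at 4.3 to 18.9 CPM, above every sham library. The other marker sums at 10 min overlapped sham. At 1 h the neutrophil markers were at 13.2 to 21.7 CPM, also above every sham library, and the other sums overlapped sham. The part of cell makeup in the clock gene levels was not tested at any time. With library totals as the scale, the median over all genes of the log2 change from sham shifted by -0.11 at 6 h, 0.19 at 24 h and 0.57 at 72 h against TMM. The fold changes below are relative to the TMM scale.

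Levels of different genes can be compared per gene length, for which the deposited FPKM (fragments for each kilobase of exon and each M fragments of the library) was used. In sham hearts the REV-ERB genes were the most abundant of the 10, with Nr1d1 at 25.0 ± 2.63 FPKM (SD, n = 3) and Nr1d2 at 20.5 ± 0.591 FPKM. Per1 followed at 13.7 ± 0.774 FPKM, then Cry2 at 7.47 ± 0.474, Per2 at 6.50 ± 0.989, Per3 at 4.83 ± 0.261 and Cry1 at 4.43 ± 0.446 FPKM. Cry2 and Per2, and likewise Per3 and Cry1, lay within the sum of their SDs. The activators were the lowest: Clock stood at 1.72 ± 0.0429 FPKM, Npas2 at 0.263 ± 0.0512 FPKM and Arntl at 0.142 ± 0.0259 FPKM. At 72 h the order had changed. Arntl stood at 4.12 ± 0.277 FPKM and Clock at 4.26 ± 0.426 FPKM, which differed by less than their spread, while Per3 at 0.557 ± 0.141 FPKM and Per2 at 0.533 ± 0.144 FPKM were the lowest of the 10.

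Promoter sequence was read for 9 of the 10 genes from RefSeq (build GRCm38.p6) in windows of 300 bases, 250 before and 50 after each annotated start. Per2 had no entry. Both strands were searched for the E-box CACGTG, its variant CACGTT and the cyclic AMP element TGACGTCA. The D-box TTATGNAA, which PAR bZIP factors and their repressor NFIL3 bind, was searched likewise. For the ROR and REV-ERB receptors only the core letters AGGTCA and GGGTCA were searched, without flanking bases, so a match is not a full element. Among 32851 windows of this length, 7.2% held CACGTG, 4.7% CACGTT, 16.3% AGGTCA, 13.7% GGGTCA, 3.4% TTATGNAA and 1.8% TGACGTCA. The upstream parts of 4 windows are shown because they carry matches to these letters, in genes whose courses after ligation differed. Each is written 5′ to 3′ on the strand of its gene, with matches on either strand in capitals. They lie at chr11:69098699-69098947 on the plus strand for the first Per1 start, chr4:151044666-151044915 on the minus strand for Per3, chr10:85185065-85185304 on the minus strand for Cry1 and chr14:18239128-18239356 on the minus strand for Nr1d2.
Per1: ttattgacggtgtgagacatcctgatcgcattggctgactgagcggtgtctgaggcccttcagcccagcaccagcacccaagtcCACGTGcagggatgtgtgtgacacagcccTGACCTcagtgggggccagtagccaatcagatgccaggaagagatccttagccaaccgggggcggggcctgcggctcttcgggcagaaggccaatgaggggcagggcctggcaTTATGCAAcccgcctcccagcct
Per3: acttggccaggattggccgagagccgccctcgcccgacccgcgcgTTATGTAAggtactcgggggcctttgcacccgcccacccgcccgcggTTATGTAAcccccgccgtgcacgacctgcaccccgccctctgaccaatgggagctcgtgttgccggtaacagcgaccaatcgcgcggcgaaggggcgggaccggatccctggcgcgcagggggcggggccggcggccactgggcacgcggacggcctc
Cry1: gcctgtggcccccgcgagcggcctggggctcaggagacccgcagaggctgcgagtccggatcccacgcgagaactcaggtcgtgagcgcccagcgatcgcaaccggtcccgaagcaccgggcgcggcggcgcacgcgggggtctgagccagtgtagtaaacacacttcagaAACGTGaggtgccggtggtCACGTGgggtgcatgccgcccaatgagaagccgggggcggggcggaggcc
Nr1d2: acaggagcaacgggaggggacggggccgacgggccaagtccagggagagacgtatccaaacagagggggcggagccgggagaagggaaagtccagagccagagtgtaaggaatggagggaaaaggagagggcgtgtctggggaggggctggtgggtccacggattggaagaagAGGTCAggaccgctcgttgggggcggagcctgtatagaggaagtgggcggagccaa
Per1 carried the E-box with its first base at -166 from the start, AGGTCA on the opposite strand at -137 and a D-box at -24. Per3 carried 2 D-boxes, at -205 and -158, and no CACGTG in this window. Cry1 carried the E-box at -60 and its variant at -79, and Nr1d2 carried AGGTCA at -77. Elsewhere in the set the variant was found in Cry2 at -166 and Nr1d1 at -28, and AGGTCA upstream of the most downstream Clock start at -119 and downstream of the second Arntl start at 31. No window of the 9 genes held GGGTCA or TGACGTCA. A match of letters describes the sequence and was not set against binding data.

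Arntl (ENSMUSG00000055116, chromosome 7:113207465-113314126, plus strand, GRCm38) encodes the obligate partner of CLOCK and NPAS2, and its RNA covered a 19.3-fold range of group means. In sham hearts it was at 1.42, 1.04 and 1.02 CPM, from 20 to 28 counts a library. It stood at 13.1, 7.52 and 9.21 CPM at 10 min, 2.66, 1.01 and 1.34 CPM at 1 h, and 7.27, 3.83 and 5.86 CPM at 6 h. The 10 min and 6 h groups lay wholly above sham, and the 1 h group overlapped it. At 24 h it was at 3.54, 1.63 and 5.41 CPM, still above the highest sham library, and at 72 h at 24.1, 22.9 and 20.0 CPM, above every other library. In order of level the groups ran 72 h, 10 min, 6 h, 24 h, 1 h and sham. In that order the 72 h and 10 min groups, and the 10 min and 6 h groups, did not overlap. The 6 h and 24 h, 24 h and 1 h, and 1 h and sham groups did. The fitted log2 fold change against sham was 3.09 (SE 0.41) at 10 min, 0.56 (SE 0.47) at 1 h, 2.28 (SE 0.42) at 6 h, 1.58 (SE 0.43) at 24 h and 4.27 (SE 0.41) at 72 h. Without replicate 3 at 24 h, which had the lowest cardiomyocyte and the highest neutrophil marker sum of its group, the 24 h value was 1.14 and lost its call. The 10 min call was lost when replicate 1 at 10 min or any sham library was left out. Exons of Arntl overlap those of Gm45355 on the other strand, and whether counting used strand is not given in the sources used here.

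**Figure D1:**
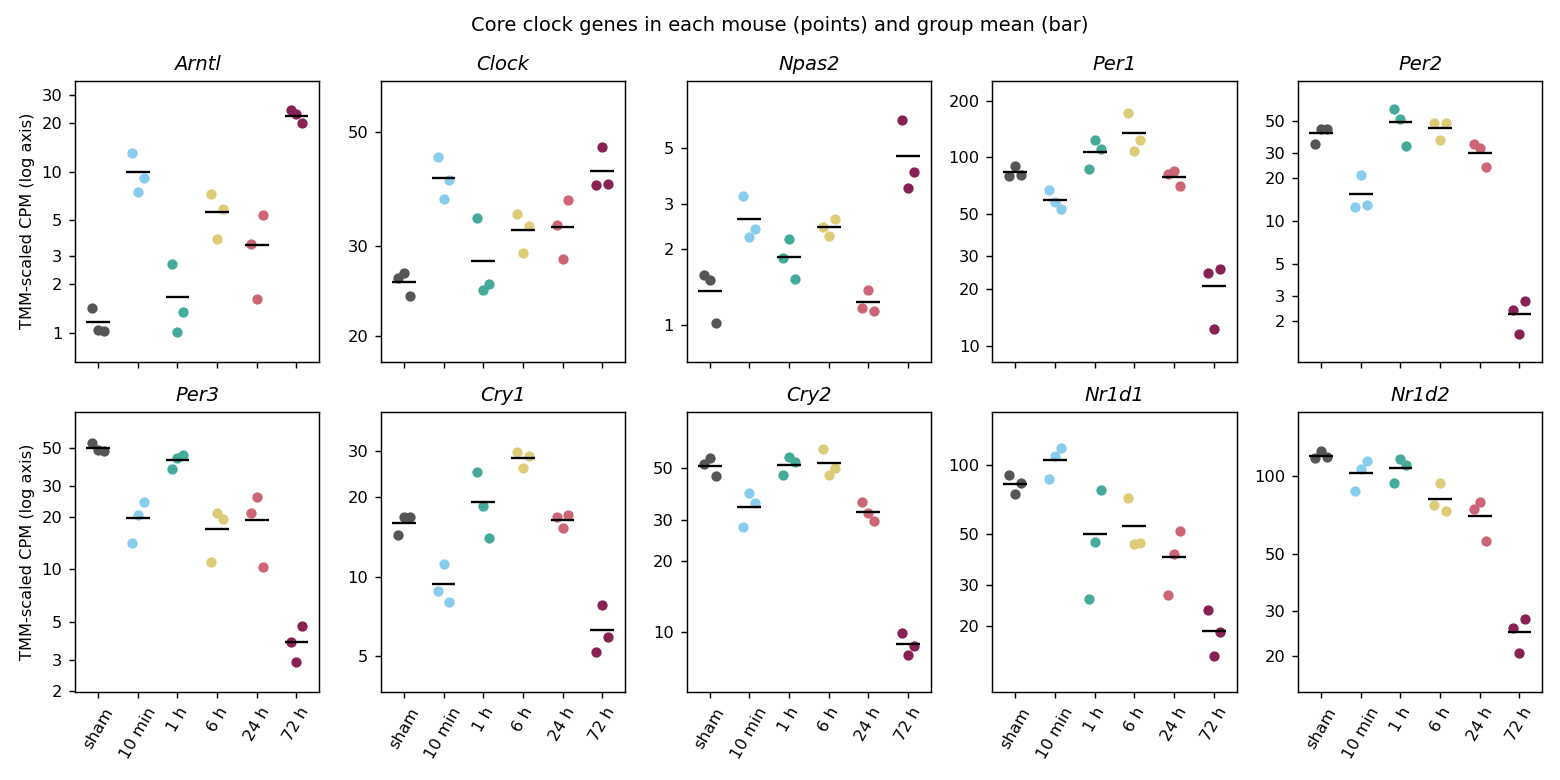
TMM-scaled CPM (log axis, a scale of its own for each gene) of the 10 clock genes in sham hearts and 10 min to 72 h after ligation; points are single mice (n = 3 a group) and bars are group means. Arntl lay between 20.0 and 24.1 CPM in the 72 h mice against 1.02 to 1.42 CPM in sham, while Per2 lay between 1.61 and 2.74 CPM against 34.4 to 44.4 CPM.

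Clock (ENSMUSG00000029238, chromosome 5:76209868-76304792, minus strand), the histone acetyltransferase that partners ARNTL, shared its highest groups, 72 h and 10 min, and its lowest, 1 h and sham, with Arntl, over a range of 1.65-fold. It was at 26.0, 26.6 and 24.0 CPM in sham, 44.7, 37.0 and 40.3 CPM at 10 min, and 34.0, 24.6 and 25.3 CPM at 1 h. The 10 min mice all exceeded the sham mice, and the 1 h mice did not except for replicate 1. Clock was at 34.7, 29.0 and 32.8 CPM at 6 h, 33.0, 28.3 and 36.8 CPM at 24 h and 39.5, 46.8 and 39.7 CPM at 72 h. All 9 of these libraries lay above the highest sham library. In the fit this was a log2 fold change of 0.67 (SE 0.13) at 10 min, 0.33 (SE 0.13) at 6 h, 0.36 (SE 0.13) at 24 h and 0.72 (SE 0.13) at 72 h. The 24 h call was lost in 5 of 27 alternatives: without any 1 sham library and without replicate 1 or 3 at 24 h.

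Npas2 (ENSMUSG00000026077, chromosome 1:39193731-39363236, plus strand), a CLOCK paralogue that can take its place beside ARNTL, was a low RNA in these hearts. It was at 1.57, 1.50 and 1.02 CPM in sham, 3.24, 2.23 and 2.40 CPM at 10 min, and 1.84, 2.19 and 1.52 CPM at 1 h. It was at 2.44, 2.25 and 2.61 CPM at 6 h, 1.17, 1.38 and 1.13 CPM at 24 h and 6.44, 3.47 and 4.01 CPM at 72 h. The 10 min, 6 h and 72 h groups lay above sham, as for Arntl, but the 24 h group lay within the sham range, where Arntl did not. Its log2 fold change was 0.84 (SE 0.27) at 6 h, -0.14 (SE 0.28) at 24 h and 1.77 (SE 0.26) at 72 h. The 6 h call was lost in 5 of 27 alternatives: in the limma fits to FPKM, without replicate 3 of sham and without replicate 1 or 3 at 6 h.

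The period genes encode the PER proteins that carry the cryptochromes into the nucleus, and their RNAs took 3 different courses before they all fell at 72 h. Per1 (ENSMUSG00000020893, chromosome 11:69095217-69109960, plus strand), which is also induced directly by stress and glucocorticoid signals, was at 79.9, 90.3 and 80.4 CPM in sham and 66.9, 58.2 and 53.4 CPM at 10 min. It then stood at 86.8, 124 and 110 CPM at 1 h and 171, 107 and 123 CPM at 6 h. All 3 libraries at 6 h were above the highest sham library, and replicate 1 was the highest of the 18. At 24 h Per1 was at 81.3, 84.7 and 70.3 CPM, overlapping sham, and at 72 h at 24.4, 12.3 and 25.6 CPM. Against sham, the log2 fold change of Per1 was -0.49 (SE 0.22) at 10 min, 0.68 (SE 0.22) at 6 h and -2.01 (SE 0.23) at 72 h. The 6 h call was lost in 8 of 27 alternatives, among them without any 1 sham library, without replicate 1 at 6 h and under library total scaling.

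Per2 (ENSMUSG00000055866, chromosome 1:91415982-91459324, minus strand), the period protein whose loss most disturbs rhythms, had the widest range of the 10 genes, 21.9-fold between group means. It was at 34.4, 44.3 and 44.4 CPM in sham, 12.6, 20.9 and 13.0 CPM at 10 min and 61.2, 52.0 and 33.7 CPM at 1 h. The 10 min mice lay below every sham mouse, and the 1 h mice did not. It was at 48.5, 37.1 and 48.3 CPM at 6 h, 34.4, 32.3 and 23.7 CPM at 24 h and 2.37, 1.61 and 2.74 CPM at 72 h. The log2 fold change was -1.40 (SE 0.24) at 10 min, 0.12 (SE 0.23) at 6 h, -0.44 (SE 0.23) at 24 h and -4.20 (SE 0.28) at 72 h. The 10 min call was lost in 18 of 27 alternatives, although the sign of the value was negative in each of them.

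Per3 (ENSMUSG00000028957, chromosome 4:151003652-151044665, minus strand), a period gene that the clock can run without, was at 53.5, 48.5 and 48.2 CPM in sham and 14.3, 20.5 and 24.5 CPM at 10 min. After 37.7, 43.8 and 45.5 CPM at 1 h it was at 11.0, 21.1 and 19.4 CPM at 6 h and 21.1, 26.2 and 10.3 CPM at 24 h. At 6 and 24 h every Per3 library was below the lowest sham library, whereas no Per1 or Per2 library was at 6 h. At 72 h it was at 3.82, 2.95 and 4.74 CPM. Fitted log2 fold changes of Per3 were -1.34 (SE 0.29) at 10 min, -1.54 (SE 0.30) at 6 h, -1.38 (SE 0.29) at 24 h and -3.71 (SE 0.33) at 72 h.

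The cryptochromes encode the main inhibitors of the CLOCK and ARNTL pair. Cry1 (ENSMUSG00000020038, chromosome 10:85131700-85185064, minus strand), whose RNA usually peaks later in the cycle than Per RNAs, was at 14.4, 16.8 and 16.7 CPM in sham, 8.84, 11.1 and 8.04 CPM at 10 min and 25.0, 18.5 and 14.0 CPM at 1 h. It was at 29.6, 25.7 and 28.7 CPM at 6 h, its highest group, and at 16.8, 15.2 and 17.2 CPM at 24 h, within 1 SD of sham in the mean. At 72 h it was at 5.17, 7.82 and 5.89 CPM. For Cry1 the log2 fold change was -0.77 (SE 0.18) at 10 min, 0.81 (SE 0.18) at 6 h, 0.04 (SE 0.18) at 24 h and -1.34 (SE 0.18) at 72 h. Cry2 (ENSMUSG00000068742, chromosome 2:92403646-92434043, minus strand) was at 52.1, 55.1 and 45.9 CPM in sham, 27.8, 38.9 and 35.3 CPM at 10 min and 46.8, 55.4 and 52.6 CPM at 1 h. Unlike the values of Cry1, those of Cry2 at 6 h, 60.1, 46.5 and 49.9 CPM, overlapped sham. It was at 35.8, 32.2 and 29.6 CPM at 24 h and 9.94, 7.95 and 8.69 CPM at 72 h, both groups wholly below sham. For Cry2 it was -0.58 (SE 0.13) at 10 min, -0.65 (SE 0.13) at 24 h and -2.53 (SE 0.14) at 72 h. Exons of Cry2 overlap those of D930015M05Rik on the other strand, and whether counting used strand is not given in the sources used here.

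The REV-ERB genes encode the repressors of Arntl. Nr1d1 (ENSMUSG00000020889, chromosome 11:98767932-98775333, minus strand) was at 90.3, 74.6 and 83.8 CPM in sham and 86.8, 109 and 118 CPM at 10 min. It was at 26.0, 46.3 and 77.4 CPM at 1 h, where the 3 mice differed more among themselves than in any other group, and at 71.6, 45.4 and 45.9 CPM at 6 h. The 10 min group had the highest mean and overlapped sham in replicate 1 alone. Nr1d1 was at 27.2, 41.2 and 51.4 CPM at 24 h and 23.4, 14.8 and 18.9 CPM at 72 h, both wholly below sham. The log2 fold change was 0.34 (SE 0.33) at 10 min, -0.74 (SE 0.33) at 1 h, -1.06 (SE 0.33) at 24 h and -2.12 (SE 0.34) at 72 h. The 24 h call was lost without replicate 1 at 24 h, without replicate 1 of sham and under library total scaling. Exons of Nr1d1 overlap those of Thra on the opposite strand, so reads of the pair may not be told apart.

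Nr1d2 (ENSMUSG00000021775, chromosome 14:18204054-18239127, minus strand) was highest in sham and lower in every later group. It was at 117, 124 and 118 CPM in sham, 87.1, 106 and 114 CPM at 10 min and 94.1, 116 and 110 CPM at 1 h. It was at 77.2, 93.4 and 73.0 CPM at 6 h, 74.6, 78.8 and 55.7 CPM at 24 h and 25.7, 20.6 and 27.9 CPM at 72 h. All 15 libraries after ligation lay below the lowest sham library. The log2 fold change was -0.22 (SE 0.14) at 10 min, -0.17 (SE 0.14) at 1 h, -0.56 (SE 0.14) at 6 h, -0.78 (SE 0.14) at 24 h and -2.27 (SE 0.15) at 72 h.

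**Figure D2:**
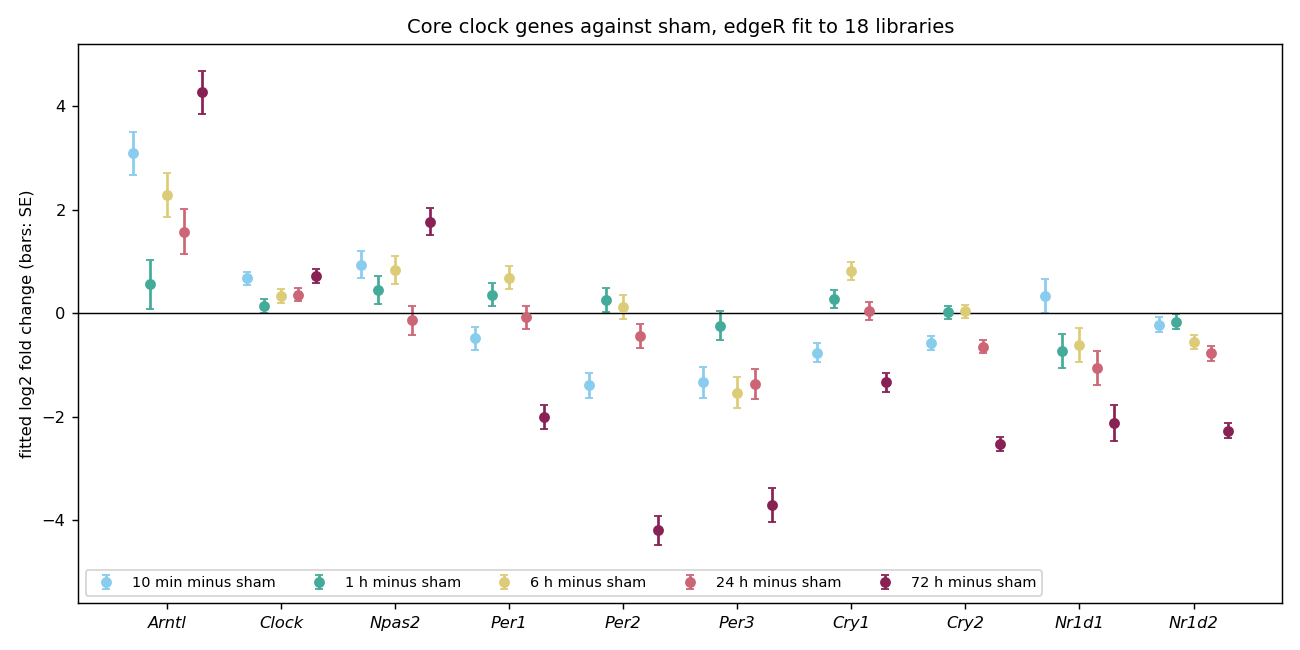
Log2 fold change against sham (points) with its SE (bars) for the 10 clock genes at 5 times after ligation, from the edgeR fit to 18 libraries. At 72 h the activators lie above 0, from 0.72 to 4.27, and the 7 repressor genes below it, from -4.20 to -1.34, while at 1 h the values lie between -0.74 and 0.56.

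The number of the 10 genes called (edgeR adjusted p under 0.05 over all genes tested) is set beside the share of all genes called, and nothing is read from it, since the genes were chosen with these contrasts known. At 10 min 2 were called, Arntl higher and Per2 lower, where 0.0736% of all genes were called. In 9 of the 10 genes, all but Nr1d1, the 10 min and sham mice did not overlap (3 higher and 6 lower), which held for 20.0% of all genes. At 1 h 0 of 10 were called (0.294% of all genes), and 0 by DESeq2 or limma. An unadjusted p under 0.05 was found for 1 of 10, beside 899 of the 16311 genes tested. The groups were apart for 2, Per3 and Nr1d2, both lower at 1 h (16.9% of all genes). At 6 h 6 were called, where 28.4% of all genes were. Arntl, Npas2, Per1 and Cry1 rose (16.3% of all genes were called higher) and Per3 and Nr1d2 fell (12.2% lower). At 24 h 6 were called, where 43.8% of all genes were. Arntl and Clock rose (23.7% of all genes were called higher) and Per3, Cry2, Nr1d1 and Nr1d2 fell (20.2% lower). At 72 h all 10 were called, where 66.4% of all genes were, with the 3 activators higher (34.2% of all genes) and the 7 repressor genes lower (32.2%). With library totals as the scale the loop genes called were 2 higher and 0 lower at 10 min, and the 3 higher and 7 lower at 72 h stood. That scale moved the share of higher genes among all genes called from 57.2% to 40.6% at 6 h, from 54.0% to 75.5% at 24 h and from 51.4% to 79.9% at 72 h. The median log2 fold change of the 10 genes was -0.357 at 10 min, 0.196 at 1 h and 0.227 at 6 h, then -0.291 at 24 h and -2.066 at 72 h, against 0.007, -0.01, -0.01, 0.008 and 0.028 over all genes tested.

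Each time was also compared with the time before it. From 10 min to 1 h 3 of the 10 were called (0.307% of all genes): Arntl was lower, with a log2 fold change of -2.53 (SE 0.40), and Per2 at 1.65 (SE 0.24) and Cry1 at 1.03 (SE 0.18) were higher. The 10 min and 1 h mice did not overlap for 9 of the 10 genes, 5 higher and 4 lower at 1 h, as for 16.8% of all genes. When replicate 3 at 10 min was left out, 0 of the 10 were called in this step. From 1 to 6 h 4 were called (24.5% of all genes), Arntl and Cry1 higher and Per3 and Nr1d2 lower. In this step the Nr1d2 call was lost in 14 of 27 alternatives, the replicate block among them, and the Cry1 call in 8. From 6 to 24 h 4 were called (27.8% of all genes), all lower (13.7% of all genes): Npas2, Per1, Cry1 and Cry2. From 24 to 72 h all 10 were called (50.5% of all genes), the 3 activators higher and the other 7 lower. The largest step was in Per2 at -3.75 (SE 0.28). Between 24 and 72 h the Nr1d1 call was lost in 5 of 27 alternatives, library total scaling among them, and the Clock call in 3. With single libraries left out in turn, 8 to 10 were called. With library totals as the scale the calls split into 2 higher and 2 lower from 10 min to 1 h, 1 and 2 from 1 to 6 h, 1 and 3 from 6 to 24 h and 3 and 6 from 24 to 72 h. Consecutive steps share the libraries of the time between them, and the contrasts with sham share the 3 sham libraries.

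The ratio of 2 genes within a library does not depend on how libraries are scaled, and gene length cancels when the ratio is compared between libraries. The log2 ratio of Arntl to Per2 was -4.60, -5.42 and -5.44 in sham and 0.06, -1.48 and -0.49 at 10 min. It was -4.53, -5.69 and -4.65 at 1 h, -2.74, -3.28 and -3.04 at 6 h and -3.28, -4.31 and -2.13 at 24 h. At 72 h it reached 3.35, 3.82 and 2.87, so the ratio in the 72 h mice exceeded that in every other mouse, and the 10 min mice exceeded all but those. The 1 h mice overlapped sham, and the 6 h and 24 h mice lay between. The ratio of Arntl to Cry1, with group means of -3.80 ± 0.39 in sham, 0.06 ± 0.58 at 10 min, -3.61 ± 0.52 at 1 h, -2.36 ± 0.36 at 6 h, -2.38 ± 0.79 at 24 h and 1.84 ± 0.34 at 72 h (SD, n = 3), put the groups in a like order. For Arntl to Nr1d1 the mean at 10 min, -3.42 ± 0.61, was near those at 6 h, -3.28 ± 0.30, and 24 h, -3.62 ± 0.92, and the 1 h mice spread from -5.85 to -3.29.

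**Figure D3:**
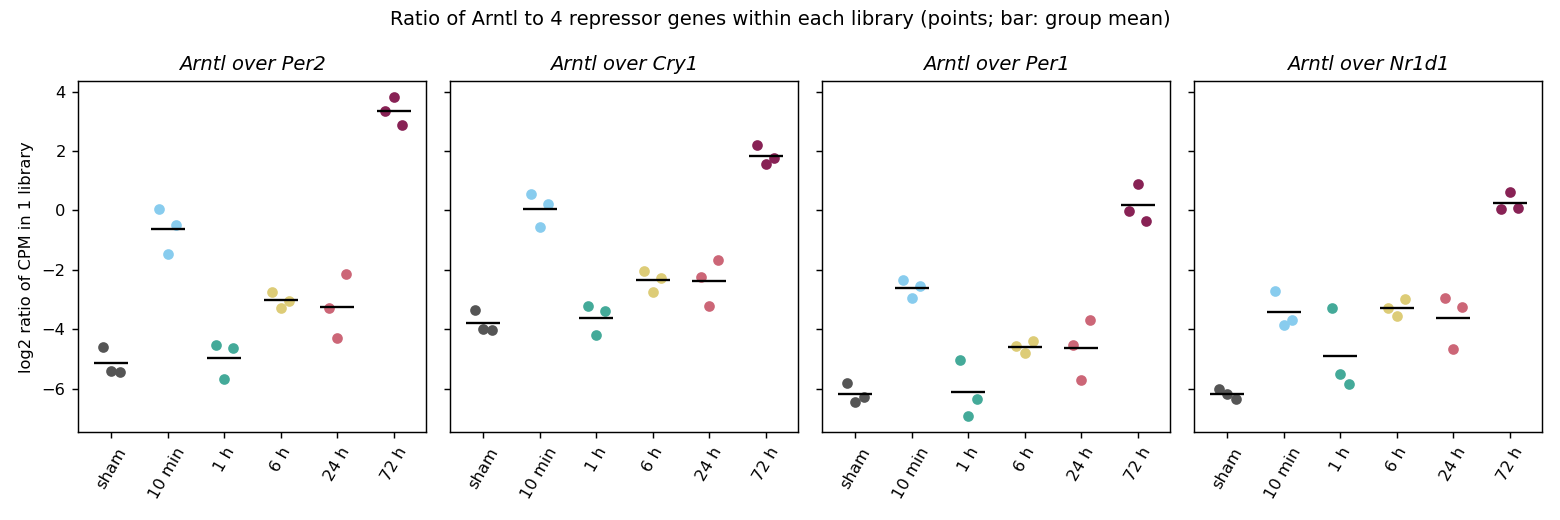
Log2 ratio of Arntl to Per2, Cry1, Per1 and Nr1d1 (in CPM) within each library, by group; points are single mice (n = 3 a group) and bars are group means. For Per2 the ratio is between -5.44 and -4.60 in sham, between -1.48 and 0.06 at 10 min and between 2.87 and 3.82 at 72 h.

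Mice of 1 group also differed from each other, and those differences were not used to choose the genes. Each library's log2 CPM was centred on the mean of its group, and the other 9 genes were compared with Arntl over the 18 deviations, with a two-sided exact permutation test that reordered mice within groups (46656 orders) and adjustment over the 9 pairs. Clock deviated with Arntl, with Pearson's r = 0.884 (exact permutation p = 0.000557, adjusted p = 0.00502) and Spearman's rho = 0.882 (exact permutation p = 0.00105, adjusted p = 0.00945). In 16 of 18 libraries the pair lay on the same side of their group means. Nr1d2 deviated against Arntl, with r = -0.759 (exact permutation p = 0.00326, adjusted p = 0.0147) and rho = -0.742 (exact permutation p = 0.0057, adjusted p = 0.0257), on opposite sides in 15 of 18 libraries. Per3 did so with r = -0.722 (exact permutation p = 0.0156, adjusted p = 0.0468) and rho = -0.639 (exact permutation p = 0.0282, adjusted p = 0.0846), on opposite sides in 12 of 18. Without the 2 libraries farthest from the median in Arntl, replicates 2 and 3 at 24 h, r was 0.867 for Clock, -0.667 for Nr1d2 and -0.536 for Per3. The other 6 genes did not pass: r was 0.308 for Cry1, 0.0686 for Npas2, -0.123 for Per2, -0.129 for Per1, -0.153 for Nr1d1 and -0.223 for Cry2, with adjusted p from 0.745 to 0.758.

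The relation of Clock to Arntl passed in all 27 alternatives, with r from 0.796 under library total scaling to 0.939 without the 72 h group. That of Nr1d2 lost its call in 5 of 27, among them without replicate 1 at 10 min, replicate 1 at 1 h or replicate 2 at 6 h, with r from -0.840 to -0.663. That of Per3 lost it in 20 of 27, with r from -0.782 to -0.577. Some marker sums moved with the same deviations: over the 18 libraries the within-group r with Arntl was 0.70 for the neutrophil markers, 0.58 for the red blood cell markers, -0.62 for the fibroblast markers and -0.36 for the cardiomyocyte markers. The part of cell makeup in these relations was not tested. Replicate 1 had the highest Arntl level in 5 of the 6 groups and replicate 2 the lowest in 4 of them. With the replicate number centred as well as the group, chosen after seeing the data, r was 0.918 for Clock, -0.829 for Nr1d2 and -0.792 for Per3. For the genes that had not passed it was 0.663 for Cry1, -0.533 for Per1, -0.331 for Cry2, -0.261 for Nr1d1, -0.232 for Npas2 and -0.199 for Per2. No p was computed with the replicate number centred, so which genes would pass there was not tested.

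**Figure D4:**
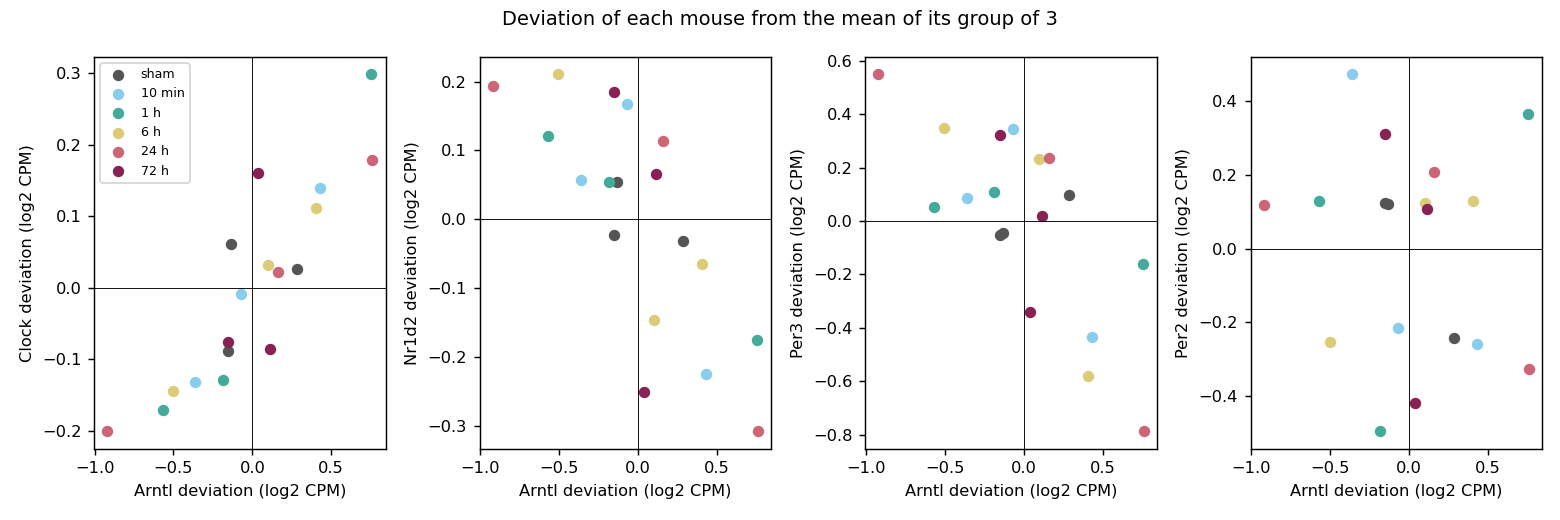
Deviation of Clock, Nr1d2, Per3 and Per2 (y axes, log2 CPM) against that of Arntl (x axis, log2 CPM) from the mean of the group of 3, for 18 mice coloured by group. Clock rises with Arntl (r = 0.884), Nr1d2 and Per3 fall with it (r = -0.759 and -0.722), and Per2 shows no such relation (r = -0.123).

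Of the 11657 genes averaging 50 or more counts a library, with loop genes and predicted genes left out, those whose within-group deviations were most like Arntl's over 18 libraries were Masp1 (r = 0.883), Kif2a (r = 0.852) and Nktr (r = 0.851), beside 0.884 for Clock. The least like were Chd1l (r = -0.900), Papss1 (r = -0.868) and Elk1 (r = -0.867). These least like genes lay below Nr1d2 (r = -0.759) and Per3 (r = -0.722). Extremes over so many genes are a description of these libraries. The share of the 11657 genes with an r as extreme as that of Clock, Nr1d2 or Per3 was not counted. Whether the relations of those loop genes to Arntl are particular to the clock was therefore not tested.

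A further 19 genes of the clock pathway, listed by function, were read in the same fit, and all 19 passed the low count filter. They were receptors of the ROR family, which activate Arntl, 5 other repressors, 8 kinases, phosphatase subunits and ubiquitin ligase parts that set the turnover of PER and CRY proteins, and 3 PAR bZIP output factors. This list too was written with earlier results of these data known. Its counts and adjusted p-values are therefore a description of these libraries and no independent test. At 10 min 1 of 19 was called (0.0736% of all genes). Cipc, an inhibitor of CLOCK, fell from 61.9, 56.7 and 56.1 CPM in sham to 41.7, 42.5 and 39.4 CPM, with a log2 fold change of -0.50 (SE 0.09, edgeR adjusted p = 0.0415). That call was lost in 15 of 27 alternatives. The next smallest adjusted p at 10 min was that of Tef, a PAR bZIP factor, at -0.83 (SE 0.17, edgeR adjusted p = 0.134). At 1 h 0 of 19 were called by edgeR, DESeq2 or limma. An unadjusted p under 0.05 was found for 2 of 19, beside 899 of the 16311 genes tested. The smallest adjusted p was that of Rorb, a receptor of the ROR family, at 0.145 to 0.292 CPM against 0.489 to 0.809 CPM in sham (edgeR adjusted p = 0.291).

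At 6 h 8 of 19 were called (28.4% of all genes), 5 higher and 3 lower, or 4 and 4 with library totals as the scale. Csnk1d, a kinase that marks PER proteins for turnover, was at 141, 101 and 112 CPM against 72.5, 75.2 and 72.8 CPM in sham, a log2 fold change of 0.68 (SE 0.11, edgeR adjusted p = 0.000145). Hlf, a PAR bZIP factor, fell by 1.39 (SE 0.23, edgeR adjusted p = 0.000491). Nfil3, the repressor at D-boxes, and Bhlhe40, a repressor at E-boxes, were picked out after their values were seen. Nfil3 rose from 9.98 ± 1.40 CPM in sham to 37.8 ± 18.6 CPM (SD, n = 3) and Bhlhe40 from 47.2 ± 6.97 to 114 ± 49.4 CPM, with replicate 1, the library with the highest neutrophil marker sum of the group, the highest in both. At 24 h 10 of 19 were called (43.8% of all genes), 4 higher and 6 lower, but 6 in all without replicate 1 of sham, and 7 higher and 5 lower with library totals. Hlf was at -1.46 (SE 0.23, edgeR adjusted p = 0.000173) and Tef at -0.82 (SE 0.17, edgeR adjusted p = 0.000959).

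At 72 h 13 of 19 were called, a share near the 66.4% of all genes called. On the TMM scale 2 were higher and 11 lower, and with library totals 7 and 7, so the split depended on the scaling. The TMM values had a median log2 fold change of -0.526 over the list against 0.028 over all genes. The receptor gene Rorb fell by 1.66 (SE 0.43), between means near the floor, 0.675 CPM in sham and 0.207 CPM at 72 h. Rora fell by 0.76 (SE 0.15), a call that was lost with library totals and in the limma fits to FPKM. Among the 5 repressors, Ciart, a repressor of the CLOCK and ARNTL pair, fell from 12.4 ± 1.55 CPM in sham to 0.986 ± 0.449 CPM. Cipc fell from 58.3 ± 3.20 to 27.5 ± 0.982 CPM. Nfil3, Bhlhe40 and Bhlhe41 did not pass in the TMM fit to 18 libraries. Nfil3 and Bhlhe40 were called higher with library totals, at 1.16 and 0.729, and in the limma fits to FPKM. Bhlhe41 was called, as lower, in 2 of 27 alternatives. Among the 8 turnover genes 2 rose and 3 fell on the TMM scale. Of the 2, Fbxl21 was near the floor, at a mean of 0.499 CPM against 0.125 CPM in sham. Of the 3 that fell, Csnk1e and Btrc were above sham with library totals or FPKM, and Ppp1cb was no longer called. The 3 PAR bZIP genes fell: Tef was at 30.2, 27.3 and 33.3 CPM against 250, 265 and 245 CPM in sham, and Hlf at 3.38, 2.25 and 2.04 CPM against 53.1, 51.7 and 51.0 CPM. Their log2 fold changes were -3.06 (SE 0.18, edgeR adjusted p = 2.16e-10) and -4.34 (SE 0.27, edgeR adjusted p = 1.79e-09). Single genes here other than Tef and Hlf were named after their values were seen. Cardiomyocyte markers were lower in the same libraries, and their part in these values was not tested.

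**Figure D5:**
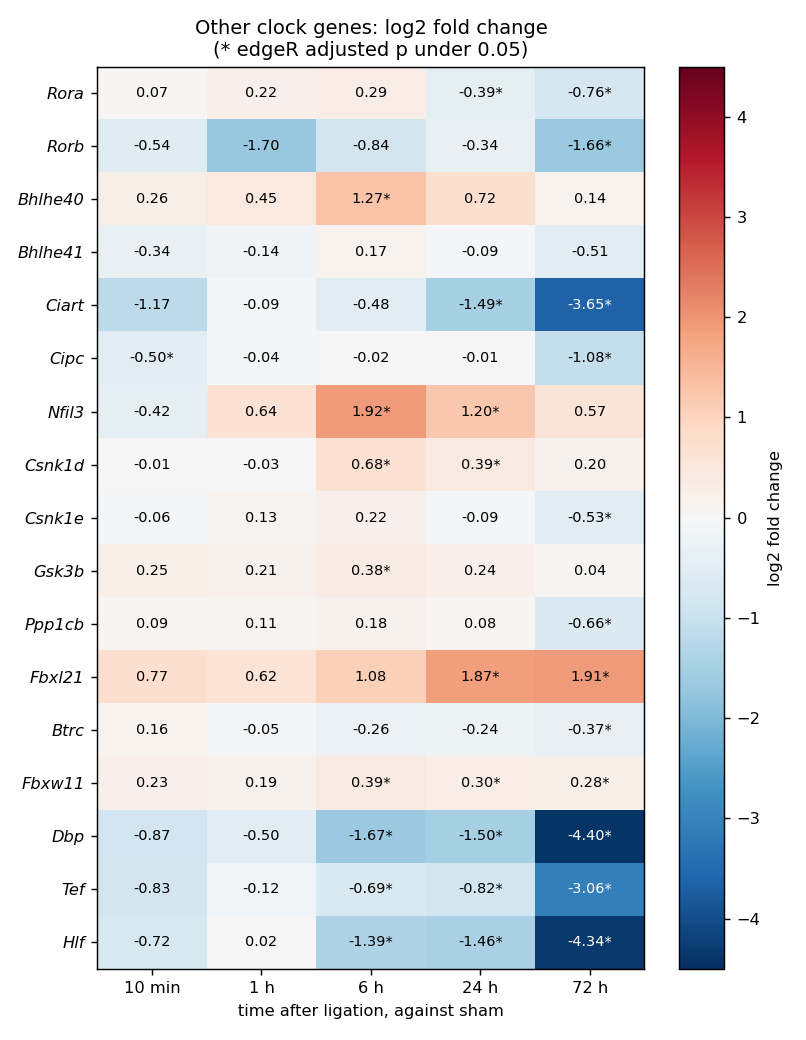
Log2 fold change against sham for 17 of the further clock genes (rows: receptors, repressors, turnover genes, PAR bZIP factors) at 5 times after ligation (columns); an asterisk marks an edgeR adjusted p under 0.05. Tef and Hlf read -3.06 and -4.34 at 72 h, and Cipc reads -0.50 at 10 min.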

How the data were processed

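Poly(A) RNA of left ventricular myocardium was sequenced with 1 library per mouse, per the labels' protocols. Per the submitters' processing notes, cutadapt 1.18, HISAT2 2.1.0, featureCounts and the build mm10 were used; the annotation and the use of strand are not given in the sources used here. The authors deposited read counts per gene and FPKM values. The deposited FPKM columns of replicates 2 and 3 at 6 h held each other's counts. FPKM is used here for levels per length in a group and for the limma alternatives only. Of 30583 gene IDs, 30489 matched a symbol in GENCODE M21 (GRCm38), which also gives the coordinates.

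The counts were filtered with filterByExpr (16311 genes kept), scaled by TMM and fitted with edgeR 4.0.16 in R 4.3.3 (quasi-likelihood, 1 mean per group, all 18 libraries, two-sided tests, Benjamini-Hochberg over all genes). The steps were tested on simulated data. Log2 CPM for the within-group comparison used a prior count of 2. The 10 genes, the 19 further clock genes and the marker lists were chosen with earlier results of these data known. Comparisons of the 10 between groups carry no p, and the adjusted p-values of the further genes are given as a description. Among the further genes, the 2 with the smallest adjusted p in each contrast with sham were named by rule. Some genes of that list are counted but not reported here. Nothing in the labels pairs mice of different groups. The edgeR p-values weigh differences between groups against the variation between mice within the groups of these 18 mice. The permutation p-values come from reordering mice within groups. Alternatives were RLE and library total scaling, other filters, DESeq2 1.42.0, limma 3.58.1 on log2(FPKM + 1) and log2(FPKM + 0.1), each pair of groups alone, a replicate block, and each library or group left out.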

Additional observations from a re-analysis of the deposited data

How the results depend on the processing

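No called fold change of a loop gene and no called correlation changed sign in the alternatives run, and all 10 loop genes were called at 72 h against sham in each of them. Of the further genes reported here, 2 turned from lower to higher at 72 h with library total scaling, limma on log2(FPKM + 1) and limma on log2(FPKM + 0.1): Csnk1e, from -0.526 to 0.061, 0.053 and 0.059, and Btrc, from -0.366 to 0.219, 0.123 and 0.204. The early counts depended on the processing, and the cause was not tested. Of the 10 loop genes, 2 were called at 10 min: DESeq2 called 6, a fit without the low count filter 4, a fit to only the 6 libraries compared 7, limma on log2(FPKM + 1) and on log2(FPKM + 0.1) 1 each, and the fit with a replicate block 1. From 10 min to 1 h the count of 3 became 5 without the filter and 8 with DESeq2. The counts of 4 from 1 to 6 h and 4 from 6 to 24 h became 2 and 1 with limma at either pseudocount. Of the 19 further genes, the 1 called at 10 min became 3 with DESeq2, 4 with only 6 libraries, and 0 with library total scaling or limma at either pseudocount; at 1 h, 0 became 2 with only 6 libraries. Over all genes, the 12 calls at 10 min became 26 without the filter, 60 with DESeq2, 360 with only 6 libraries, 2 with limma on log2(FPKM + 1) and 5 on log2(FPKM + 0.1). The 48 at 1 h became 95 with DESeq2 and 190 with only 6 libraries, and the 50 from 10 min to 1 h became 133 and 244. The 4541 from 6 to 24 h became 6880 with library total scaling and 1024 with only 6 libraries. The 3 genes whose deviations were called as correlated with Arntl's, in either direction, became 1 when the 1 h or the 24 h group was left out.

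With each library left out in turn, loop genes called ranged from 0 to 4 at 10 min, from 0 to 5 from 10 min to 1 h and from 2 to 4 from 1 to 6 h. Further clock genes called ranged from 0 to 2 at 10 min and from 6 to 12 at 24 h. All genes called ranged from 0 to 24 at 10 min (0 without replicate 3 of sham), from 31 to 68 at 1 h, from 6 to 87 from 10 min to 1 h (6 without replicate 3 at 10 min), from 2926 to 5319 at 6 h and from 2481 to 4712 from 1 to 6 h, both lowest without replicate 1 at 6 h. Genes whose deviations were called as correlated with Arntl's ranged from 1, without replicate 1 at 10 min, to 3. Replicate numbers are shared by all groups, but of 27 pairs of same-numbered libraries the deviations over all genes correlated above 0.1 in 2, with a range of -0.26 to 0.25, so the numbers were not taken to pair mice. The replicate block gave 14 calls over all genes at 10 min and 43 at 1 h.

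Among the loop genes, depth limits Arntl and Npas2 most, at 17 and 22 counts in their lowest libraries. Of the further genes, Rorb and Fbxl21 lay lower still, with means of 0.675 and 0.125 CPM in sham. Groups of 3 give no test of single outlying mice. The hour of day, the time since anaesthesia and surgery and the changed cell makeup cannot be told apart from time after ligation.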
